A study of Mus musculus with 19 samples.

Results

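Peaks of the chromatin protein SPEN were examined at 10 genes of the Notch signalling pathway in cells of the mouse testis: 1 ligand gene (Jag1), 3 receptor genes (Notch1, Notch2 and Notch3), the inhibitor gene Numb, the DNA-binding factor gene Rbpj, the coactivator genes Maml1 and Maml2, and the target genes Hes1 and Hey2. They were chosen by name, out of 21031 protein-coding genes used for comparison, and their peaks are those that the authors' annotation assigned to them within 5 kb, or within 50 kb, of a transcription start site (TSS).

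The Notch pathway passes a signal between neighbouring cells. A ligand such as Jag1 on one cell binds a Notch receptor on the next, the receptor is cut, and its intracellular part enters the nucleus, where it joins the DNA-binding protein RBPJ and a coactivator of the Mastermind family (Maml) and switches on target genes such as those of the Hes and Hey families. Without the signal RBPJ holds the same targets off together with corepressors, and SPEN is one of them. SPEN is a large nuclear protein that binds RNA and recruits histone deacetylase complexes. In the testis the pathway is known chiefly from the contact between germ cells and the somatic Sertoli cells that nurse them.

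Chromatin immunoprecipitation and sequencing (ChIP-seq) of SPEN had been done on cells of adult FVB/N mouse testes, from males of 10 to 16 weeks. One antibody, against the N-terminus of SPEN, was used on mixed testicular cells that were untreated (32 °C), held at 38 °C for 15 min, or held at 38 °C for 30 min and left to recover for 2 h (3 libraries). A second antibody, against an internal stretch of SPEN, was used on mixed testicular cells that were untreated or held at 38 °C or at 43 °C, each for 15 min, for 30 min, and for 30 min with 2 h or 4 h of recovery (9 libraries), and on cells enriched in spermatocytes to up to 80% that were untreated or held at 43 °C for 30 min with 0, 2 or 4 h of recovery (4 libraries). Cells recovered at 32 °C, and all were heated in suspension after enzymatic dissociation, outside the testis. The background was an IgG precipitation and an input DNA of testicular cells and an input DNA of the spermatocyte fraction (3 libraries). A peak that shared no base with any peak of these 3 libraries is called antibody-specific below, which is a statement on overlap and not by itself one on SPEN binding.

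Each condition had 1 library, made from 5 to 6 pooled precipitations, so no value below has a replicate error, no difference was tested, and each statement compares libraries and not conditions. Read totals are not in the files used here, so the depth of each library is unknown, and deeper sequencing alone can lengthen a list. Peak lists carry no expression values, so the labelled cell types could not be checked against marker genes. The library of untreated testicular cells under the internal antibody, called the untreated internal library below, stood apart with 29315 peaks, 27370 of them antibody-specific, and the spermatocyte library at 4 h of recovery had 9707 and 8164. The remaining SPEN libraries had 1682 to 3590 peaks and 333 to 1442 antibody-specific ones. Of their peaks 59.8% to 80.2% lay at background positions, against 6.63% (exact 95% Clopper-Pearson interval 6.35 to 6.93%, counting error only) in the untreated internal library. This percentage depends on the length of the list and does not by itself show fewer background peaks in the untreated internal library. The 3 libraries of the N-terminal antibody carry another folder name in the file headers than the other 16, so antibody and folder cannot be told apart.

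Across the 16 SPEN libraries, 13 peaks were assigned to the 10 genes within 50 kb, all 13 of them antibody-specific, and 7 of them lay within 5 kb. No peak within 50 kb was assigned to any of the genes in the IgG or input libraries. The 13 peaks came from 3 libraries: 1 from testicular cells with the N-terminal antibody at 2 h of recovery from 38 °C, 2 from spermatocytes at 4 h of recovery from 43 °C, and 10 from the untreated internal library. Notch3, Numb, Maml1, Maml2 and Hey2 had a peak within 5 kb, Rbpj and Notch2 had one only between 5 and 50 kb, and Notch1, Hes1 and Jag1 had none within 50 kb. The authors' peak score, a value of their peak caller whose lowest value was 50.0 to 50.02 in every list, ran from 51.53 to 116.68 over the 13 peaks, and their widths from 136 to 389 bp.

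**Figure D1:**
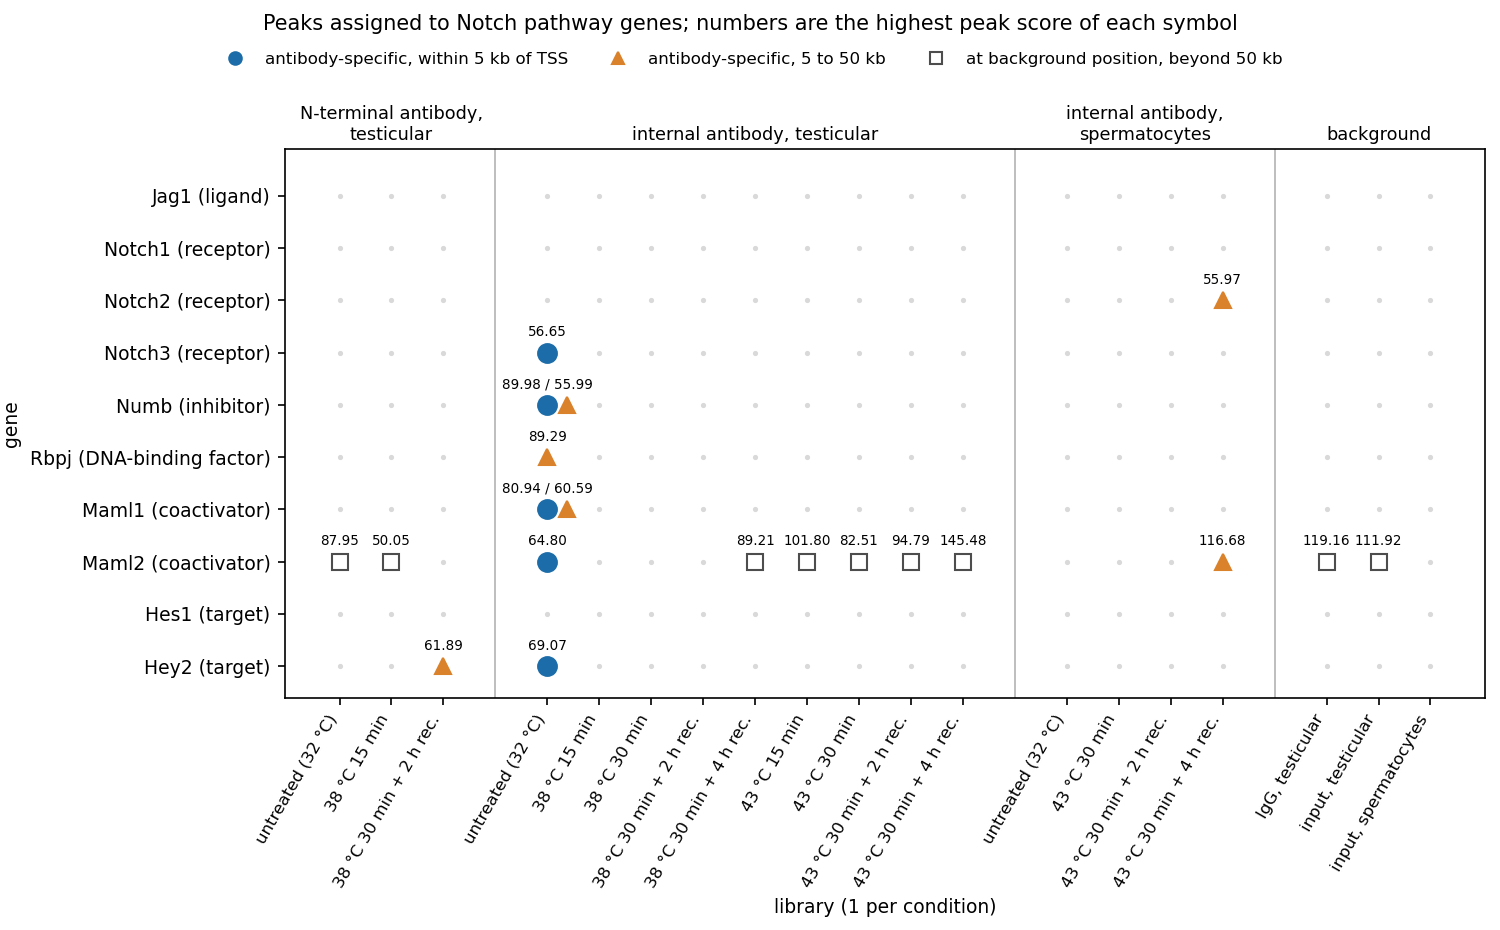
Each row is a gene with its role, and each column 1 library, in order of temperature and time within each antibody and cell population. Blue circles mark antibody-specific peaks within 5 kb of the TSS, orange triangles those at 5 to 50 kb, open squares peaks at background positions farther away, and the numbers give the highest peak score of each symbol; antibody-specific peaks beyond 50 kb are not drawn. All circles lie in the column of the untreated internal library, and the open squares lie in the row of Maml2, in SPEN, IgG and input columns alike.

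After heat shock, 0 of the 10 genes had an antibody-specific peak within 5 kb in any of the 8 testicular libraries of the internal antibody, against 5 of the 10 in the untreated internal library. Over all protein-coding genes the shares were 0.799% in any of the 8 heat-shocked libraries and 20.2% in the untreated one, so the 0 among 10 genes is near the background. The genes had been picked with their peaks in the untreated internal library already known, and the 5 of 10 is therefore no result about the pathway. Within 50 kb, 6 of the 10 had a peak in the untreated internal library, beside 37.9% of all genes. In the other libraries no gene of the 10 had a peak within 5 kb: 0.276% of all genes had one in any of the 3 libraries of the N-terminal antibody, 3.48% had one in the spermatocyte library at 4 h of recovery, and 0.309% had one in any of the 3 other spermatocyte libraries. In the untreated state the counts within 5 kb were thus 0 of 10 with the N-terminal antibody in testicular cells and 0 of 10 with the internal antibody in spermatocytes, against 5 of 10 in the untreated internal library (the N-terminal list held 2164 peaks, the spermatocyte list 1783 and the untreated internal list 29315).

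The sequences around 3 of these start sites are shown because the highest-scoring peaks within 5 kb in untreated testicular cells lay beside them, at Numb, Maml1 and Hey2. They are RefSeq promoters on GRCm38.p6, the assembly also called mm10, each from 250 bases before to 50 bases after the TSS, on the strand of the gene, 5′ to 3′. Capitals mark GTGGGAA, the core of the site that RBPJ binds, or its reverse complement TTCCCAC. The Hey2 promoter lies at chr10:30842734-30843033 (minus strand), the Maml1 promoter at chr11:50292287-50292586 (minus strand), and the Numb promoter at chr12:83921885-83922184 (minus strand).

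Hey2: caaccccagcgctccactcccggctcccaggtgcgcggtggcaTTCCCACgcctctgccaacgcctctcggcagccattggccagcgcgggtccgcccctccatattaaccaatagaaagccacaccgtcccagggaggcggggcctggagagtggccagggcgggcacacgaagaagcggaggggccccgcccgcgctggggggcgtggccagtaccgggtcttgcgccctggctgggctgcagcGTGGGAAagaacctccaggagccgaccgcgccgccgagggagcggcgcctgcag

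Maml1: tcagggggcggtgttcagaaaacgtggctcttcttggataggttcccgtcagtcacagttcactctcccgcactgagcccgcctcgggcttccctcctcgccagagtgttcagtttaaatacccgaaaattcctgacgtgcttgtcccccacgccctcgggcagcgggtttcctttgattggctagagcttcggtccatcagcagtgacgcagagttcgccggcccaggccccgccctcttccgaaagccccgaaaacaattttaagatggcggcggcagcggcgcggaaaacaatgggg

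Numb: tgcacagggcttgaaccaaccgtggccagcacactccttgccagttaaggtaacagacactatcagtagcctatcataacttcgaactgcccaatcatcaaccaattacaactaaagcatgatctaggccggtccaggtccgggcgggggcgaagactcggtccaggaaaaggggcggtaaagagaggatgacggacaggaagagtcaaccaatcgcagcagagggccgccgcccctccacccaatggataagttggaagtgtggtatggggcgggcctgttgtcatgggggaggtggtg

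The Hey2 promoter held 2 copies of the core, from -207 to -201 on the strand opposite to the gene and from -4 to 2, across the start, on the strand of the gene (the first transcribed base is 0). Promoters were found for 9 of the 10 genes, 13 promoters in all, and the other 12 held no copy of GTGGGAA on either strand. The gene without one was Hes1, so its promoter was not searched for any motif named here. Of 32851 mouse promoters of the same length, 6.38% held at least 1 copy and 0.256% held 2 or more. The E-box CACGTG, which Hes and Hey proteins are known to bind, was in none of the 13 promoters, beside 7.15% of all promoters. The paired heat shock unit GAANNTTC is part of the element bound by heat shock factors. It was in the Maml1 promoter at -126 and in 1 of the 3 Numb promoters at -20, beside 7.86% of all promoters. That Numb promoter is not the printed one. The N-box CACNAG, a second motif of Hes proteins, was in 42.5% of all promoters and in those of Notch1, Notch2 and Notch3. It was also in 1 of those of Maml2 and in 1 of those of Numb, again not the printed one. A match is a string of letters and not a bound site, and no peak of the 10 genes overlapped any of these promoter windows. The nearest peak ended 17 bp from the Hey2 window, 303 bp from the Maml1 window and 444 bp from the Numb window, so the peaks lay beside the printed sequences and not on them.

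Hey2, a transcriptional repressor that Notch signalling switches on and that is best known from the heart and blood vessels, was the only one of the 10 genes with more than 1 peak within 5 kb. Its 3 peaks in the untreated internal library surrounded the start. A peak at chr10:30842283-30842456, with a score of 69.07, lay 414 bp downstream in intron 1 of 4, in a CpG island. A further peak at chr10:30842528-30842716, with a score of 51.53, lay 161 bp downstream in exon 1 of 5. Another at chr10:30843174-30843319, with a score of 52.26, lay 463 bp upstream, in what the annotation classes as promoter. Of the peaks in that list 61.4% scored below the first of these, 11.5% below the second and 15.9% below the third, so the second and the third peak were near the bottom of the list. The promoter printed above, with its 2 RBPJ cores, lies between the second and the third.

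With the N-terminal antibody no peak was found at the Hey2 start. At 38 °C for 30 min with 2 h of recovery that antibody gave a single peak at chr10:30861916-30862118, with a score of 61.89, 19234 bp upstream of Hey2 in intergenic DNA and inside a LINE-1 element of the L1Md_F3 family. In that library 0.946% of all genes had an antibody-specific peak within 50 kb. Of its 298 antibody-specific peaks within 50 kb of a gene 71.5% (66.0 to 76.5%) were also called in another SPEN library, whereas the peak upstream of Hey2 was called in no other.

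Numb, which encodes a membrane-associated protein that promotes the removal of Notch receptors, had the highest score of the 10 genes within 5 kb. Its peak in the untreated internal library, at chr12:83921180-83921440, scored 89.98 and lay 624 bp downstream of the start, in intron 1 of 10 and in a CpG island. Of the list 79.6% scored lower, which is rank 5597 among the antibody-specific peaks. A weaker peak at chr12:83885860-83886082, with a score of 55.99, lay in the same intron, 9159 bp upstream of another annotated start of the gene. In spermatocytes at 4 h of recovery from 43 °C a peak with a score of 52.43 lay in intron 8 of Numb in a B3 SINE repeat, and the authors' annotation assigned it to the neighbouring gene Papln. No other library had a peak within Numb.

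Maml1 and Maml2 encode scaffold proteins that bind the complex of RBPJ and the Notch intracellular part and bring in histone acetyltransferases. In the untreated internal library Maml1 had a peak at chr11:50291695-50291983, with a score of 80.94, 497 bp downstream of the start in exon 1 of 5. A second one at chr11:50286919-50287134, with a score of 60.59, lay 5310 bp downstream in intron 1 of 4, just outside 5 kb, and one more with a score of 58.87 lay in the last of the 5 exons and was assigned to Ltc4s. Maml1 thus held 3 peaks of 1 library along its body and none of any other library.

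Maml2 was the only one of the 10 genes to which the authors' annotation assigned antibody-specific peaks within 50 kb in both of the long lists, and they lay at different places. Counted by distance to RefSeq starts, Numb also had one in both, through the peak assigned to Papln. In spermatocytes at 4 h of recovery from 43 °C its peak at chr9:13669379-13669758 scored 116.68 and lay 7108 bp downstream of an annotated start, in intron 1 of 3 of the transcript that begins there. Of that list 94.7% scored lower. In untreated testicular cells its peak at chr9:13621217-13621413 scored 64.80 and lay 1326 bp downstream of another annotated start, in exon 1 of 4. The nearest peak of untreated testicular cells was 48.0 kb away from the spermatocyte peak. Scores are compared within a list only, since each list was called by itself.

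Rbpj, the gene of the DNA-binding factor through which SPEN is known to reach Notch targets, had no peak within 5 kb in any library. In the untreated internal library it had a peak at chr5:53583155-53583365 with a score of 89.29, 7086 bp upstream of the start used by the annotation and inside intron 1 of 10 of a longer transcript. That score exceeded 79.2% of the list, close to the value at Numb. In the same library a peak in the 3′ end of the gene, in exon 11 of 11, scored 52.78 and was assigned to Rnu7. Peaks 111 and 128 kb upstream of another annotated start of Rbpj scored 73.87 and 92.97.

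Among the receptor genes, Notch3 had a peak within 5 kb and Notch2 and Notch1 had none. Notch3 encodes the receptor known chiefly from the smooth muscle of arteries. Its peak in the untreated internal library, at chr17:32165611-32165999, scored 56.65 and lay 1047 bp downstream of the start, in intron 1 of 32 and in a CpG island. Of the list 34.6% scored lower. A second peak, with a score of 75.43, lay in the last of its 33 exons and was assigned to the pseudogene Pdxk-ps.

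Notch2 gave the only antibody-specific position inside any of the 10 genes that was called in more than 1 SPEN library. It lay in intron 23 of 33, at chr3:98131841-98132026 with a score of 55.35 in testicular cells at 4 h of recovery from 43 °C, and at chr3:98131779-98132056 with a score of 112.79 in untreated testicular cells, both with the internal antibody. The authors' annotation assigned both to Adam30, whose start is 28879 and 28895 bp away, so they are not among the 13 peaks. This position was singled out after its values were seen. In spermatocytes at 4 h of recovery Notch2 also had a peak at chr3:98046418-98046553, with a score of 55.97, 32947 bp downstream of its start in intron 1 of 33 and in a MIR3 SINE repeat. In that library 13.0% of all genes had an antibody-specific peak within 50 kb, beside 2 of the 10 genes (Notch2 and Maml2).

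Notch1, a receptor gene, and Hes1, the target gene best known across tissues, had no peak assigned to them at any distance in any of the 19 libraries, IgG and inputs included. Jag1, the ligand gene, had 3 antibody-specific peaks in the untreated internal library, all 235 to 253 kb upstream in L1Md_A or L1Md_T elements and with scores of 56.17 to 98.93. Hey2 had a peak of the same kind in the same library, 212 kb away in an L1Md_T element, with a score of 97.59. The absence of a call is not the absence of binding, since the lists start at a score of about 50 and their depth is unknown.

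**Figure D2:**
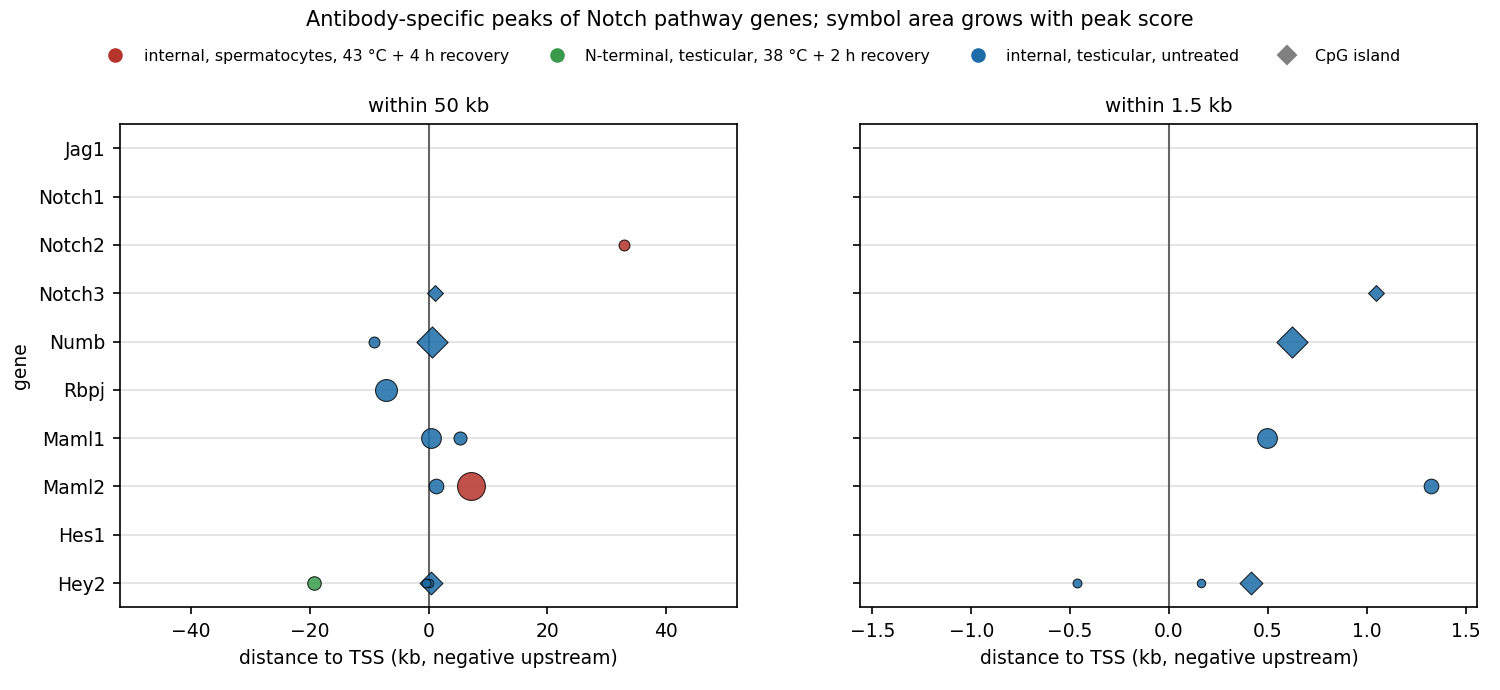
Antibody-specific peaks of the 10 genes by distance from the assigned TSS in kb, with negative values upstream; the left panel covers 50 kb and the right panel 1.5 kb on each side. Colours give the library, diamonds mark peaks that the annotation labels as CpG island, and symbol area grows with the peak score. The 7 peaks in the right panel all come from the untreated internal library, and 6 of them lie downstream of the start.

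The 7 peaks within 5 kb all lay within 1.5 kb of the start, as did 81.4% of the 5577 antibody-specific peaks within 5 kb of any gene in the untreated internal library. Downstream of the start lay 6 of the 7, beside 73.3% of the 5577, and 3 of the 7 were labelled as CpG islands (Notch3, Numb and Hey2), beside 16.9%. None was labelled as a repeat, beside 8.09%. The annotation gave 1 label per peak, and at these genes only intron and intergenic peaks carried an island or repeat label. Whether the 3 exon peaks and the 1 promoter peak among the 7 lie in islands or repeats is therefore not known. Their median score was 64.80, beside 64.6, and their median width 197 bp, beside 219 bp. With 7 peaks, 3 of them at 1 gene, these are descriptions of the peaks and not of a class. Per length of gene body, the bodies of the 10 genes held 13 antibody-specific peaks, whatever gene they were assigned to, of the untreated internal library in 957 kb, or 1.36 per 100 kb, beside 1.13 per 100 kb over all protein-coding genes. The density was 19.2 per 100 kb in Hey2, the shortest of the genes with a peak, 8.0 in Maml1, 4.34 in Notch3, 1.97 in Rbpj, 1.56 in Numb, 0.731 in Notch2 and 0.242 in Maml2, the longest.

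**Figure D3:**
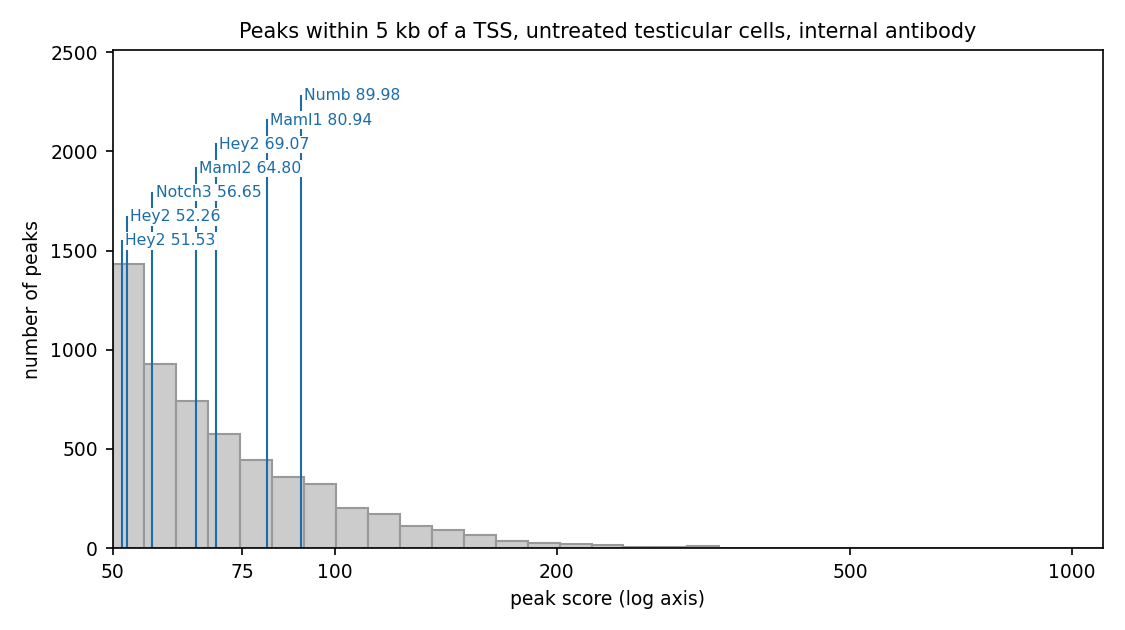
The grey bars count all 5577 antibody-specific peaks within 5 kb of a TSS in the untreated internal library by peak score, on a log axis, and the blue lines mark the 7 peaks of Notch3, Numb, Maml1, Maml2 and Hey2. The 7 lie between 51.53 and 89.98, in the body of the distribution.

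The highest score within 5 kb was 56.65 to 89.98 over the 5 genes, with a median of 69.1, beside a median of 66.9 over the 4250 protein-coding genes with such a peak. Maml1 and Numb, 2 of the 10 genes, had a peak within 5 kb that scored at least 75 in this library, beside 7.67% of all protein-coding genes. The 1000 highest-scoring antibody-specific peaks of that library began at 165.08 and lay within 5 kb of 0 of the 10 genes, beside 0.533% of all protein-coding genes.

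None of the 13 peaks shared a base with a peak of any other library, of SPEN or of background, and none had a peak of another library with its centre within 1 kb. For the peaks within 5 kb in the untreated internal library this is the usual case: 5.58% of all 5577 (4.99 to 6.21%) were called in another SPEN library and 1.36% in any of the 8 heat-shocked testicular libraries of that antibody. Within 50 kb the share called in another SPEN library was 34.4% (33.0 to 35.9%) of 4062 peaks in spermatocytes at 4 h of recovery, where Notch2 and Maml2 have 1 peak each, and 10.8% (10.3 to 11.3%) of 14682 peaks in the untreated internal library. Of the 4250 genes with a peak within 5 kb in untreated cells, 99 (2.33%) had one within 5 kb in any of the 8 heat-shocked libraries, and 0.329% to 1.32% had one in each library taken by itself. The 5 genes share their pattern, a peak in the untreated internal library alone, with 18.4% of all protein-coding genes (3867).

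After heat shock, peaks in testicular cells with the internal antibody lay far from the RefSeq starts of the 10 genes, although some lay inside the genes, at the position in Notch2 and at background positions in Maml2. Over the 8 heat-shocked libraries and 10 genes, 80 distances in all, the nearest peak of any kind lay 116 to 3840 kb from a RefSeq start, with a median of 872 kb, and none lay within 100 kb. For Maml2 these are the starts of the 2 promoters in the RefSeq table. The start used by the authors' annotation is another, 85.4 kb from the background position described next. Hes1 had no RefSeq promoter, so the nearer end of its gene span was used in place of a start. At Numb the nearest peak was about 2270 kb away in all 8 libraries, and at Maml1 about 1160 kb. In IgG, in both inputs and in untreated testicular cells with the N-terminal antibody, it lay at about these same distances. They are therefore not particular to the heat-shocked libraries. At Notch2 the lowest value, 118 kb, is the position in intron 23 at 4 h of recovery from 43 °C. These 8 lists held 2452 to 3590 peaks, against 29315 in the untreated internal library, and those of IgG and the inputs held 1641 to 2924; the part of depth in this was not tested.

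One peak assigned to Maml2 recurred, and it was a background position. It lay 85.4 kb upstream of the assigned start, at chr9:13534256-13534844 when all its calls are joined, in DNA that the authors' annotation gives as intergenic and that lies inside the longest RefSeq span of Maml2. It was called in 7 of the 16 SPEN libraries and 9 of all 19. The internal antibody gave scores of 89.21 in testicular cells at 4 h of recovery from 38 °C, 101.80 at 43 °C for 15 min, 82.51 at 43 °C for 30 min, and 94.79 and 145.48 at 2 h and 4 h of recovery. The N-terminal antibody gave 50.05 at 38 °C for 15 min and 87.95 in untreated cells, and the background libraries gave 119.16 in IgG and 111.92 in testicular input. The position thus gave a peak with and without a SPEN antibody.

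This site was not called in the untreated internal library or in any spermatocyte library, input included. Of the 1058 autosomal positions called in both IgG and testicular input, each SPEN library called 64.7% to 88.7%, and the untreated internal library 79.7%. Why this site was missing from these lists was not tested. A (CA)n repeat in the same span of Maml2, assigned to Phxr4, was called in testicular cells at 38 °C for 30 min with a score of 63.07, in spermatocytes at 4 h of recovery with 191.11, in untreated testicular cells with 373.17, all with the internal antibody, and in IgG with 68.00.

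**Figure D4:**
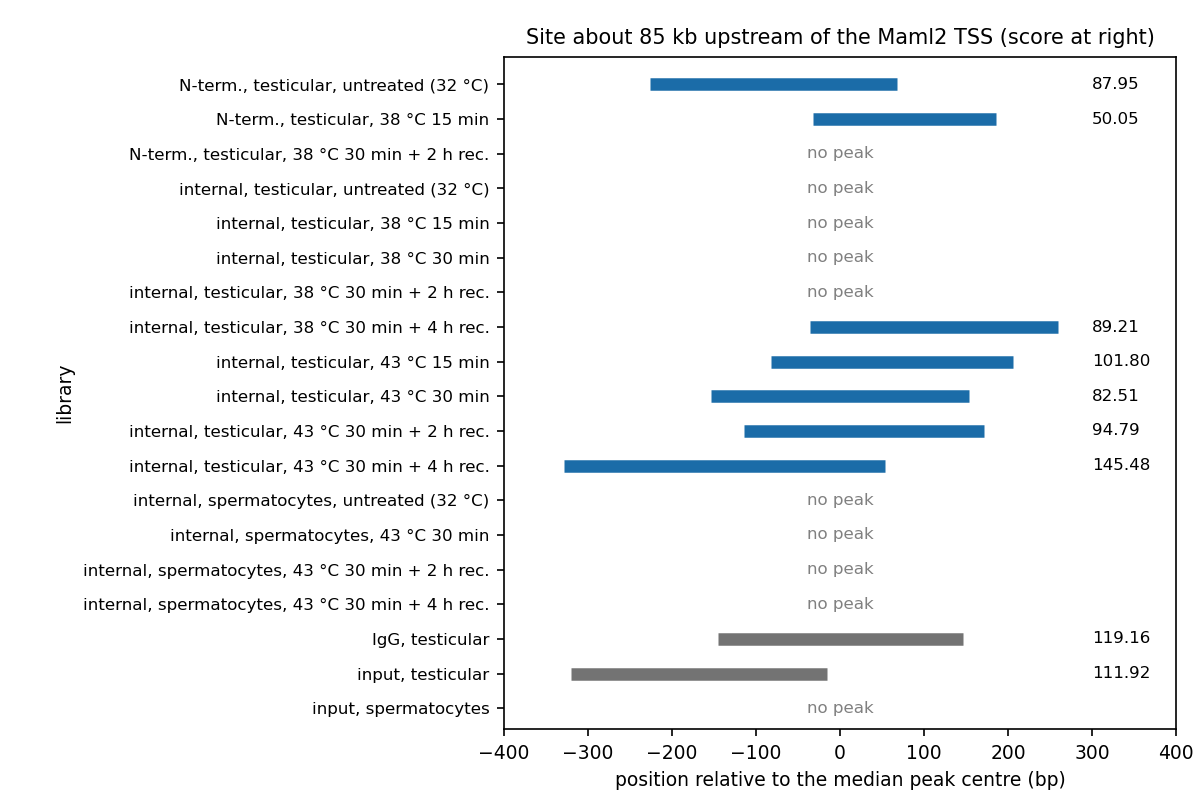
Horizontal bars show the extent of the peak about 85 kb upstream of Maml2 in each library, in bp from the median peak centre, with the peak score at the right; SPEN libraries are blue and background libraries grey. IgG (119.16) and testicular input (111.92) have the peak as do 7 SPEN libraries, and the untreated internal library and all spermatocyte libraries do not.

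The other genes of the pathway were taken from a list of 65, made with earlier results of these data known. In the untreated internal library 18 of the 65 (27.7%) had an antibody-specific peak within 5 kb, beside the 20.2% of all protein-coding genes, and 26 (40.0%) had one within 50 kb, beside 37.9%. Their highest scores had a median of 89.4 and ran from 53.39 to 163.12. By role, 9 of the 18 encode nuclear corepressors or coactivators, roles that 15 and 6 of the 65 listed genes have. Whether a role had more peaks than the rest of the list was not tested. Among 15 corepressor genes 6 had a peak, namely Spen itself (53.39), Ncor1 (148.79), which encodes the scaffold of the NCoR complex, its partner Tbl1xr1 (71.16), the histone deacetylase gene Hdac2 (63.53), and the Groucho-type genes Tle1 (54.29) and Tle4 (138.75). Among 6 further coactivator genes 3 had one, the acetyltransferase genes Ep300 (92.64) and Crebbp (134.93) and the splicing and transcription factor gene Snw1 (86.18).

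Ahead of the nucleus, peaks were found at 3 of 9 genes of ubiquitin ligases and Deltex proteins. These were Mib1 (72.89) and Neurl1a (96.62), which act on the ligand, and Dtx4 (163.12). Of 7 other ligand genes 1 had a peak, Dner (93.28). The Dtx4 peak lay 1240 bp upstream in a LINE repeat, and a second one, 305 bp downstream in the 5′ UTR, scored 116.86. The Dner peak lay 4939 bp upstream, also in a LINE repeat. The cleavage genes gave 2 of 9, Psen2 (99.19) and Aph1c (82.54), which encode parts of gamma-secretase, and the glycosylation genes 1 of 5, Poglut1 (55.80). The inhibitor and turnover genes gave 2 of 5, the ubiquitin ligase genes Itch (112.59) and Fbxw7 (64.81). Of the 7 further target genes none had a peak in this library, and neither did Notch4 or Rbpjl, the paralogue of Rbpj. With the 10 genes included, 23 of 75 (30.7%) had a peak, 5 of 8 coactivator genes and 1 of 9 target genes among them. Beside all of these counts stands the 20.2% of all protein-coding genes, and no group was tested against it. The counts with the 10 genes included take in 5 genes picked with their peaks known and are no result about the pathway.

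**Figure D5:**
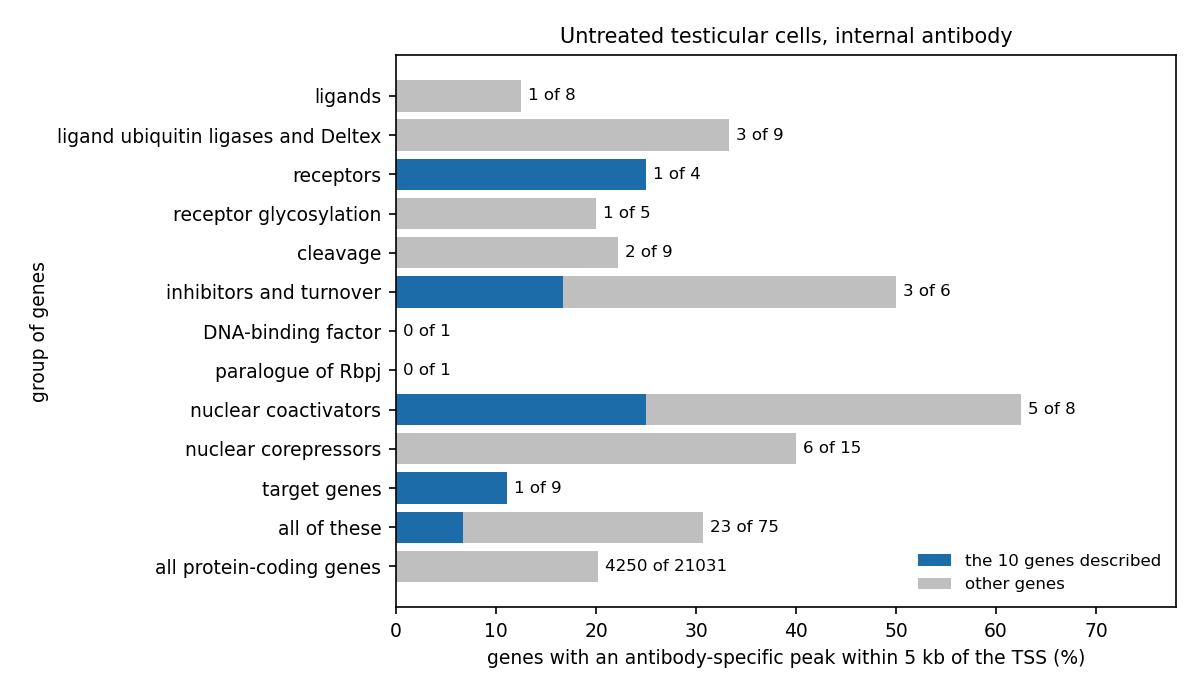
Bars give the percentage of genes of each role, and of all protein-coding genes, with an antibody-specific peak within 5 kb of the TSS in the untreated internal library; blue is the part owed to the 10 genes described, grey the part of other genes, and the counts stand at the bar ends. The 8 coactivator genes have the longest bar (62.5%), which holds Maml1 and Maml2, 2 of the genes picked with their peaks known, and the groups hold 1 to 15 genes each.

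In the other libraries the list gave few peaks within 5 kb. In testicular cells at 38 °C for 30 min with the internal antibody 2 of the 65 had one, beside 0.414% of all genes: Psen2, with a score of 86.06 at the place that scored 99.19 in untreated cells, and Nrarp (51.81), which encodes an inhibitor induced by Notch. At 43 °C for 30 min the target gene Hes3 had one in a simple repeat (74.87), beside 0.0999% of all genes. In spermatocytes at 4 h of recovery from 43 °C 4 of the 65 had one, beside the 3.48% of all genes. They were Dner (79.75, in a LINE repeat), the protease gene Adam10 (59.00), the gamma-secretase gene Aph1b (54.30) and Itch (53.98). The peaks of Dner and Itch overlapped those of untreated testicular cells. The N-terminal antibody gave none in its 3 libraries. Antibody-specific peaks within 5 kb at 1 place in more than 1 library were thus found at Psen2, Dner and Itch, and not at the 10 genes.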

How the data were processed

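ChIP-seq of SPEN in mouse testicular cells and spermatocytes gave 19 libraries, grouped by their labels. Per the submitters' processing notes the authors used Bowtie2, SAMtools and HOMER on mm10; their versions and the threshold and control of peak calling are not given in the sources used here. Peak names contain MACS and peaks were called per library; the peak score is deposited by the authors as that caller's own value. Distance to TSS and assigned gene are other deposited columns, from HOMER per the file headers.

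Peaks were joined by at least 1 shared bp. Genes were matched by gene ID to 21031 protein-coding RefSeq genes of GRCm38.p6 with a curated mRNA. The overlap code was tested on simulated peaks (Python 3.11.15, pandas 2.3.3, NumPy 2.4.6, SciPy 1.17.1). Depth is unknown, and intervals (95%, Clopper-Pearson) cover counting error only. The 10 genes, the list of 65 and the counts were chosen with earlier results of these data known. All 10 genes were to be described; of the 65, those with a peak within 5 kb were named. The promoters of Numb, Maml1 and Hey2 were printed although no peak overlapped them, a choice made after seeing the data. The position in intron 23 of Notch2 was also named afterwards. Sequences under the peaks were not analysed here.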

Additional observations from a re-analysis of the deposited data

How the results depend on the processing

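The counts of the 10 genes within 5 kb were recomputed in each SPEN library with windows of 2 and 50 kb, and those within 5 and 50 kb without removal of background positions, with background peaks widened by 1 kb, with the background of the same cell population only, with RefSeq starts, with scores of at least 75 and with the 1000 highest-scoring antibody-specific peaks. The counts of the 65 other genes were recomputed with scores of at least 75 only, and those in any SPEN library with 1 of the long lists left out. For counts above 0 in the text, 21 of 34 recomputed values stayed within 1.5 times the count and 13 did not. The other counts were 0, which a stricter setting cannot raise but a looser one can. The window of 50 kb raised the count within 5 kb from 0 to 2 in spermatocytes at 4 h of recovery. It raised that of the N-terminal antibody at 2 h of recovery from 38 °C from 0 to 1. In the untreated internal library the count within 5 kb was 5 and became 2 at a score of at least 75 and 0 among the 1000 highest, and the count within 50 kb was 6 and became 3 and 0. In spermatocytes at 4 h of recovery the count was 0 within 5 kb and 2 within 50 kb; the second count fell to 1 (Maml2) at a score of at least 75 and to 1 among the 1000 highest. With the N-terminal antibody at 2 h of recovery from 38 °C it was 0 within 5 kb and 1 within 50 kb, and 0 at a score of at least 75. RefSeq starts left 4 genes within 5 kb in untreated testicular cells, without Maml2, and gave 3 within 50 kb in spermatocytes at 4 h of recovery (Notch2, Maml2 and Numb). Alternatives chosen after seeing the data left 0 genes within 5 kb and 3 within 50 kb (Hey2, Maml2 and Notch2) in any SPEN library without the untreated internal library. At a score of at least 75 they left 11 of the 65 other genes in that library, 1 in spermatocytes at 4 h of recovery, 1 at 38 °C for 30 min and 0 at 43 °C for 30 min. The lists hold no read counts, so depth limits every absence. No paired analysis was possible because each condition had 1 library and the labels give no replicate numbers; for the same reason no replicate could be left out.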
